A study of Mus musculus with 40 samples.

Results

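The comparison described here is that of mouse lung tissue isolated by laser capture microdissection (LCM) with whole sections of mouse lung, as 2 sources of RNA from the same animal model of squamous lung carcinogenesis. Its members are the samples with a passed quality label, 13 of 25 LCM samples and 12 of 15 whole lung samples, which together make 25 of the 40 samples in the series. RNA was sequenced as single-end reads of 50 nucleotides, and the values are expected counts per gene, the reads that RSEM assigned to a gene once those with more than 1 matching gene had been divided up. The question was which cell types and tissues each source carried, once dysplasia grade, strain and RNA integrity were in the model.

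All mice were females of the inbred strains SWR/J or A/J that entered the study as young adults, and all had been painted on the skin either with N-nitroso-tris-chloroethylurea (NTCU), a carcinogen that causes squamous lesions of the airways, or with acetone, its solvent. In A/J mice, normal samples (0 µmol NTCU) came from 2 LCM and 1 whole lung samples, moderate/severe dysplasia (14 µmol) from 2 and 1, and CIS/SCC tumor (20 µmol) from 1 and 1. In SWR/J mice, normal samples came from 1 LCM and 3 whole lung samples, mild dysplasia (15 µmol) from 3 and 2, moderate/severe dysplasia from 1 and 1 at 25 µmol and from 2 and 2 at 30 µmol, and severe dysplasia (50 µmol) from 1 and 1. The doses are those of the labels, and the methods of the study name fewer total doses than the labels do. Each of these 8 combinations of strain and dose held both sources, which allowed the sources to be compared within a combination as well as across all samples. The grade of a whole lung sample is the worst lesion seen in the section, and the rest of the section need not have that grade. The labels do not tell which samples share an animal, and p-values therefore measure the spread between these samples.

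The airways of the mouse are lined by club cells and ciliated cells. The trachea and main bronchi also hold basal cells and are supported by cartilage, and goblet cells and submucosal glands add to the secretions there. The gas-exchange part of the lung, which makes up most of a section, holds alveolar type 1 (AT1) cells, which form the thin barrier to the air, alveolar type 2 (AT2) cells, which make surfactant, a dense network of capillaries, and the macrophages of the air spaces. Laser capture cuts chosen areas from a section under the microscope, so that an area of airway can be taken without most of the surrounding lung, but whatever lies within the cut is collected with it.

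Among the samples that passed quality control, no difference in library quality between the 2 sources was detectable. The study removed samples by their share of uniquely aligned reads, which is among the measures compared here. Similarity of the passed samples was therefore favoured in advance. Of the samples that failed, 12 were LCM and 3 were whole lung. The expected counts summed to between 2667387 and 16534728 in LCM samples and between 3447364 and 14157267 in whole lung samples. Median TIN, a score of RNA integrity from 0 to 100 computed over transcripts, was 52.1 ± 14.3 (SD, n = 13) and 49.6 ± 15.0 (n = 12), and the number of genes detected was 19480 ± 1500 and 19520 ± 1224. Over 6 such measures of the passed samples, the adjusted p of a two-sided permutation test was 0.995 for each. Over all 40 samples the mean number of genes detected was 15450 in LCM and 18300 in whole lung (permutation test, adjusted p = 0.25). The mean share of uniquely aligned reads was 25.85% and 38.71% (permutation test, adjusted p = 0.25).

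Several libraries carried tissue from outside the lung or little of the lung itself, in both sources. In the plot of summed expression by library, values are CPM (counts scaled to library size) on TMM-normalized library sizes, summed over the members of a list. The sum over the 10 genes of the thymus list was above 500 CPM in 4 LCM samples (2B, 40, 47 and SM1) and in 4 whole lung samples (70, 75, 81 and 82), and it reached 2405 CPM in LCM sample 2B and 2997 CPM in whole lung sample 70. Rag1, which cuts the antigen receptor genes in developing lymphocytes, was at 701 CPM in sample 2B and 1021 CPM in sample 70, against a median of 0.371 CPM over the LCM samples. LCM sample 45 and whole lung sample 78, both moderate/severe dysplasia of SWR/J mice at 25 µmol, had thyroid and parathyroid sums of 44110 and 16810 CPM, whereas the next sample was at 529.5 CPM. Thyroglobulin (Tg) was at 7591 and 7784 CPM in this pair. Sample 78 also had a liver sum of 12720 CPM, against 209.6 CPM in the next sample. Whole lung sample 70 had the lowest AT2 sum of all 25 samples, 223 CPM, although it is labelled as whole lung, and whole lung samples 72 and 79 had the highest B cell sums, 2078 and 1470 CPM. The samples labelled LCM and whole lung are therefore named by their labels.

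**Figure D1:**
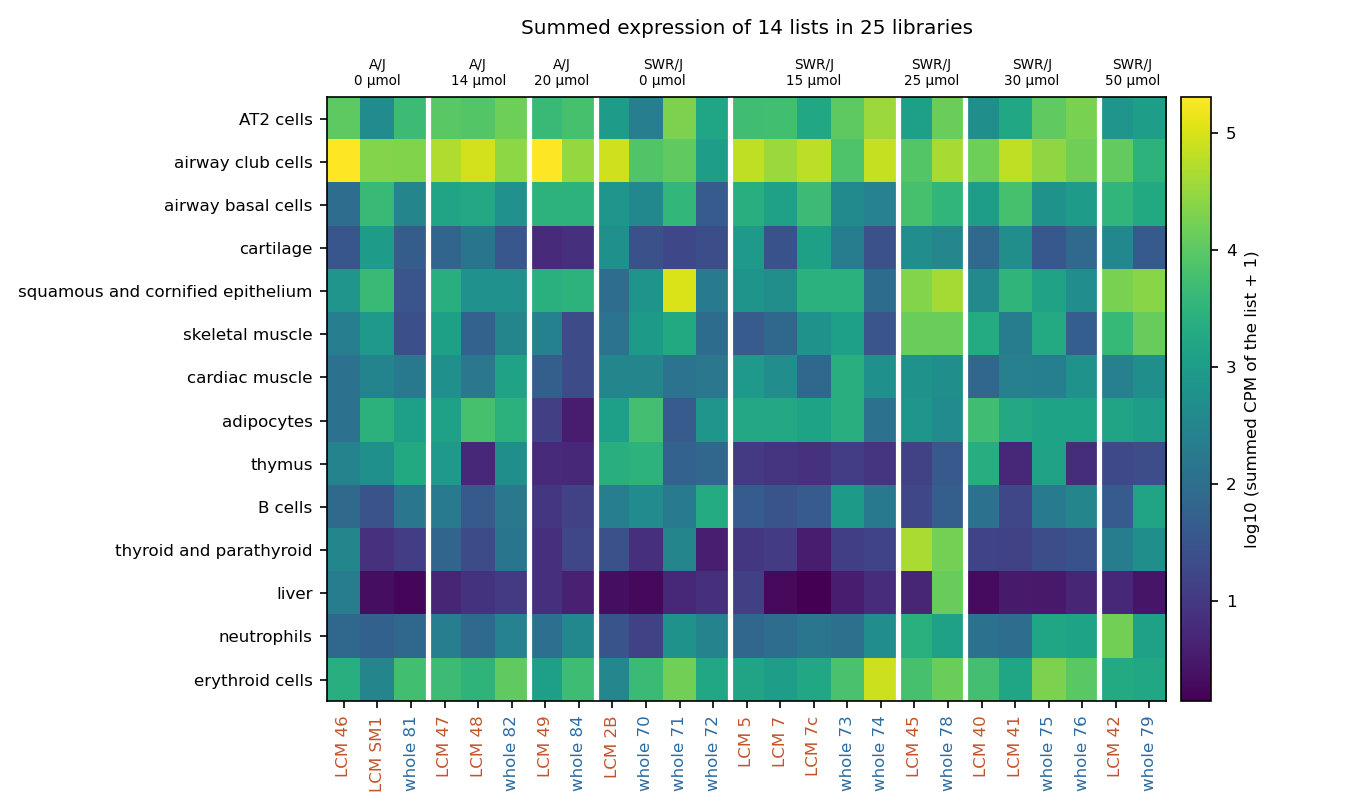
Each column is 1 of the 25 samples, grouped by strain and dose of NTCU with LCM samples first, and each row is 1 of 14 lists of marker genes, with the colour giving log10 of the summed CPM of the list plus 1. Thymus sums are high in samples of both sources, up to 2405 CPM in LCM and 2997 CPM in whole lung, and thyroid sums stand out in LCM sample 45 and whole lung sample 78.

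Across all genes, airway and cartilage genes were higher in LCM samples, and genes of the alveoli, of blood vessels, of air-space macrophages, of B cells and of red blood cells were higher in whole lung samples. Of 15630 genes tested with edgeR's quasi-likelihood test, 2780 (17.8%) differed at a Benjamini-Hochberg adjusted p under 0.05, of which 1194 (7.64%) were higher in LCM and 1586 (10.1%) were higher in whole lung. The difference was at least 2-fold for 566 and 659 of them. The median log2 fold change (LCM minus whole lung) over all genes tested was -0.02. Within the 8 combinations of strain and dose, 444 of the genes higher in LCM were higher there in all 8, and 687 of the genes higher in whole lung were higher there in all 8. These genes were called on the same samples, which favours such agreement, and the share over all genes tested was not computed. A fit with the combinations in place of grade and strain called 2930 genes, of which 2624 were also called before, all with the same sign. It used the same samples and a similar model, so that a shared sign among genes called by both fits was favoured in advance. The levels of the sources overlapped for nearly every gene: 0 genes had all LCM samples above all whole lung samples, and 1 gene, Zfp628, had all of them below. Zfp628, a zinc finger gene that was singled out after its values were seen, was at 2.51 ± 0.38 log2 CPM in LCM and 3.44 ± 0.33 log2 CPM in whole lung (log2 fold change -0.91, standard error 0.16, edgeR adjusted p = 0.00202).

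The number of calls depended on which libraries entered. Without the 8 samples with thymus sums above 500 CPM, a choice made after the data were seen, 443 genes were called by edgeR (117 higher in LCM and 326 higher in whole lung), with 17 samples and 9 residual degrees of freedom in place of 17. Without the pair of samples with thyroid RNA, also chosen after the data were seen, 2698 genes were called, and without whole lung sample 70 the count was 2808. Without LCM sample 49, the A/J tumor, the count of genes higher in whole lung was 1031.

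**Figure D2:**
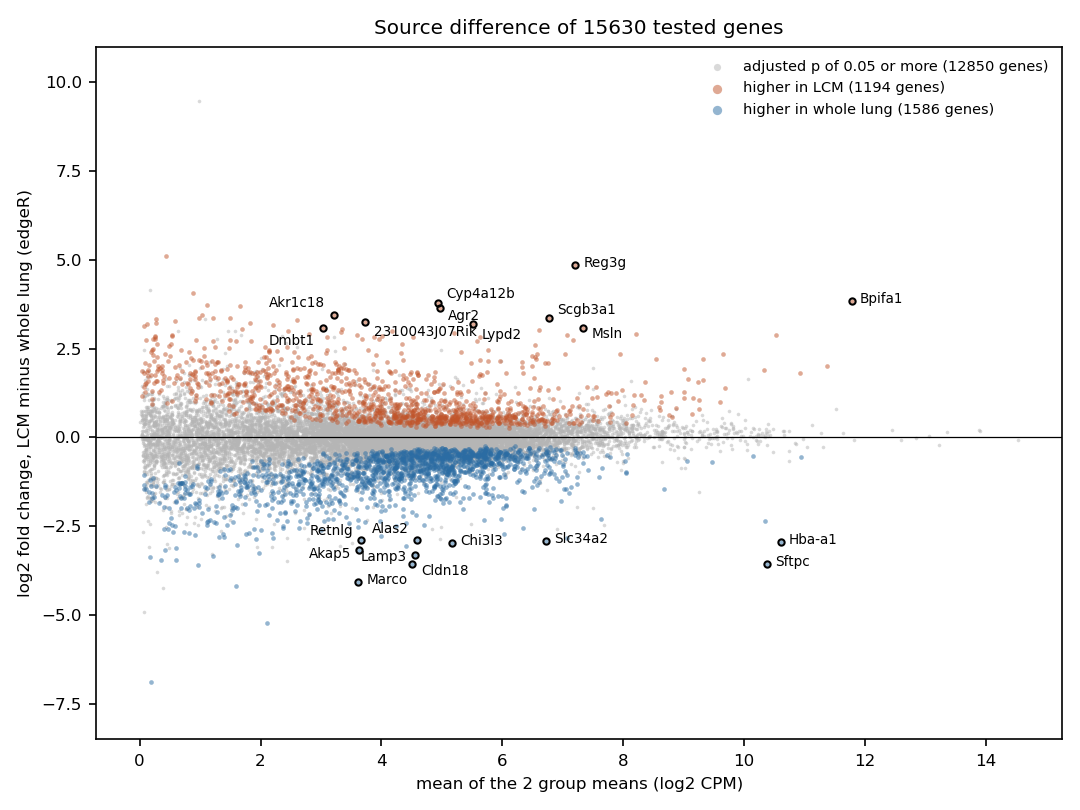
Each point is 1 of the 15630 genes tested, with the mean of the 2 group means in log2 CPM on the x axis and edgeR's log2 fold change of LCM minus whole lung on the y axis; coloured points have an adjusted p under 0.05. The labelled genes are the 10 with the largest and the 10 with the smallest fold change among well-expressed protein-coding genes, from 4.86 for Reg3g to -4.08 for Marco.

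The 10 genes with the largest fold changes towards LCM held several that encode secreted proteins of the airway, Reg3g, Bpifa1 and Scgb3a1 among them. Reg3g (chr6:78416262-78418868 in NCBIM37), a lectin that kills Gram-positive bacteria, was between 4.20 and 4035 CPM in LCM with a median of 1075 CPM, and between 1.46 and 235 CPM in whole lung with a median of 38.7 CPM. In 10 of 13 LCM samples its level was above the highest whole lung sample, and LCM was higher in all 8 combinations. Its level was 29.1-fold higher in LCM (log2 fold change 4.86, standard error 0.87, edgeR adjusted p = 0.00202).

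Bpifa1 (chr2:153968616-153974955), a secreted protein of the upper airway lining with antimicrobial and surfactant properties, had a median of 12850 CPM in LCM (40.7 to 136600) and of 1308 CPM in whole lung (20.4 to 23290). The ranges overlapped, with 6 LCM samples above all whole lung samples and 12 of 13 above the whole lung median. The log2 fold change was 3.84 (standard error 0.78, edgeR adjusted p = 0.00371). The lowest LCM sample for both Reg3g and Bpifa1 was sample 46, a normal A/J sample, and the whole lung sample of the same combination (81) was lower still, at 1.46 and 20.4 CPM.

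Agr2 (chr12:36719494-36730674), a protein disulfide isomerase that mucus-producing cells need to fold mucins, had a median of 104.7 CPM in LCM (4.65 to 665.9) and 9.56 CPM in whole lung (0.324 to 105.7). All but 1 of the LCM samples were above the whole lung median, and its log2 fold change was 3.65 (standard error 0.58, edgeR adjusted p = 0.00107). Scgb3a1 (chr11:49477112-49478620), a secretoglobin of the large airways, differed by a log2 fold change of 3.37 (standard error 0.90, edgeR adjusted p = 0.0150), with 5 LCM samples above all whole lung samples. Lypd2 (chr15:74549460-74564743), a membrane protein of the Ly6 family, was at 36.0 to 445 CPM in LCM and 1.58 to 119 CPM in whole lung, and it is the gene of the 10 for which every LCM sample lay above the whole lung median (log2 fold change 3.19, edgeR adjusted p = 0.00193).

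The other genes of the 10 were Cyp4a12b, Akr1c18, 2310043J07Rik, Msln and Dmbt1, with log2 fold changes of 3.80, 3.44, 3.25, 3.08 and 3.08. Akr1c18 encodes a hydroxysteroid dehydrogenase and Dmbt1 a scavenger protein of gland and mucosal secretions. Cyp4a12b, a fatty acid hydroxylase, has a near-identical neighbour, so that the division of reads between the copies is uncertain. In the A/J samples alone, in which 0 genes were called, the fold changes of 2310043J07Rik and Msln had the opposite sign (-1.29 and -1.44). All 10 genes were higher in LCM in at least 7 of the 8 combinations, which their choice by fold change and by a shared direction of group means in the strains favours. Without the 8 samples with thymus RNA all 10 fold changes kept their sign, and 3 passed edgeR's test: Agr2 (3.35), Lypd2 (2.86) and Msln (2.61). Reg3g (4.17, edgeR adjusted p = 0.0584) and Bpifa1 (3.42, edgeR adjusted p = 0.0725) did not. All 10 passed without the pair with thyroid RNA, and all 10 without whole lung sample 70.

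The 10 genes with the largest fold changes towards whole lung included members of the lists for air-space macrophages, alveolar epithelium, red blood cells and neutrophils. Marco (chr1:122371115-122401661), a scavenger receptor by which alveolar macrophages bind inhaled particles and bacteria, was between 0.33 and 33.4 CPM in LCM with a median of 3.58 CPM, and between 4.04 and 568.8 CPM in whole lung with a median of 36.5 CPM. All LCM samples lay below the whole lung median, and 8 of 13 lay below the lowest whole lung sample. Its level was 17-fold higher in whole lung (log2 fold change -4.08, standard error 0.81, edgeR adjusted p = 0.00331).

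Sftpc (chr14:70920748-70923888), a surfactant protein made by AT2 cells, had a median of 627.5 CPM in LCM (21.5 to 5673) and of 6221 CPM in whole lung (28.9 to 19850). No LCM sample reached the whole lung median, but the lowest whole lung sample, 70, was below all except 3 LCM samples. The difference was 11.8-fold (log2 fold change -3.56, standard error 0.99, edgeR adjusted p = 0.0183), and whole lung was higher in all 8 combinations. Sftpc RNA was thus present in every LCM sample, at a lower level in most of them.

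Hba-a1 (chr11:32183511-32184465), an alpha globin gene of red blood cells, was at 94.1 to 2228 CPM in LCM and at 414.7 to 18760 CPM in whole lung. Its log2 fold change was -2.95 (standard error 0.53, edgeR adjusted p = 0.00202), but its near-identical copy Hba-a2 did not pass the test (log2 fold change 0.72, standard error 1.57), so that the division of reads between the pair is uncertain. Alas2, which starts heme synthesis in red blood cell precursors and has no such copy, was below the whole lung median in 13 of 13 LCM samples (log2 fold change -2.88, edgeR adjusted p = 0.00405). The other genes of the 10 were Cldn18, Lamp3, Akap5, Chi3l3, Slc34a2 and Retnlg, with log2 fold changes from -3.58 to -2.89. Cldn18 seals the junctions between alveolar cells, Lamp3 lies in the lamellar bodies of AT2 cells, Slc34a2 takes up phosphate there, and Retnlg is a secreted protein of neutrophils. Chi3l3, a chitinase-like protein of macrophages, also has close relatives among which reads could be divided. Some of these calls were near the threshold: with 1 sample left out, Slc34a2 was called in 9 of 25 fits, Retnlg in 14, Chi3l3 in 16 and Lamp3 in 20.

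Without the 8 samples with thymus RNA the 10 genes kept their sign and 5 passed edgeR's test: Marco (-4.76), Cldn18 (-3.61), Sftpc (-3.72), Lamp3 (-3.59) and Akap5 (-3.47). Hba-a1 did not (-2.97, edgeR adjusted p = 0.0581). Without the pair with thyroid RNA 6 passed, and Lamp3, Chi3l3, Slc34a2 and Retnlg did not. All 10 passed without whole lung sample 70.

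**Figure D3:**
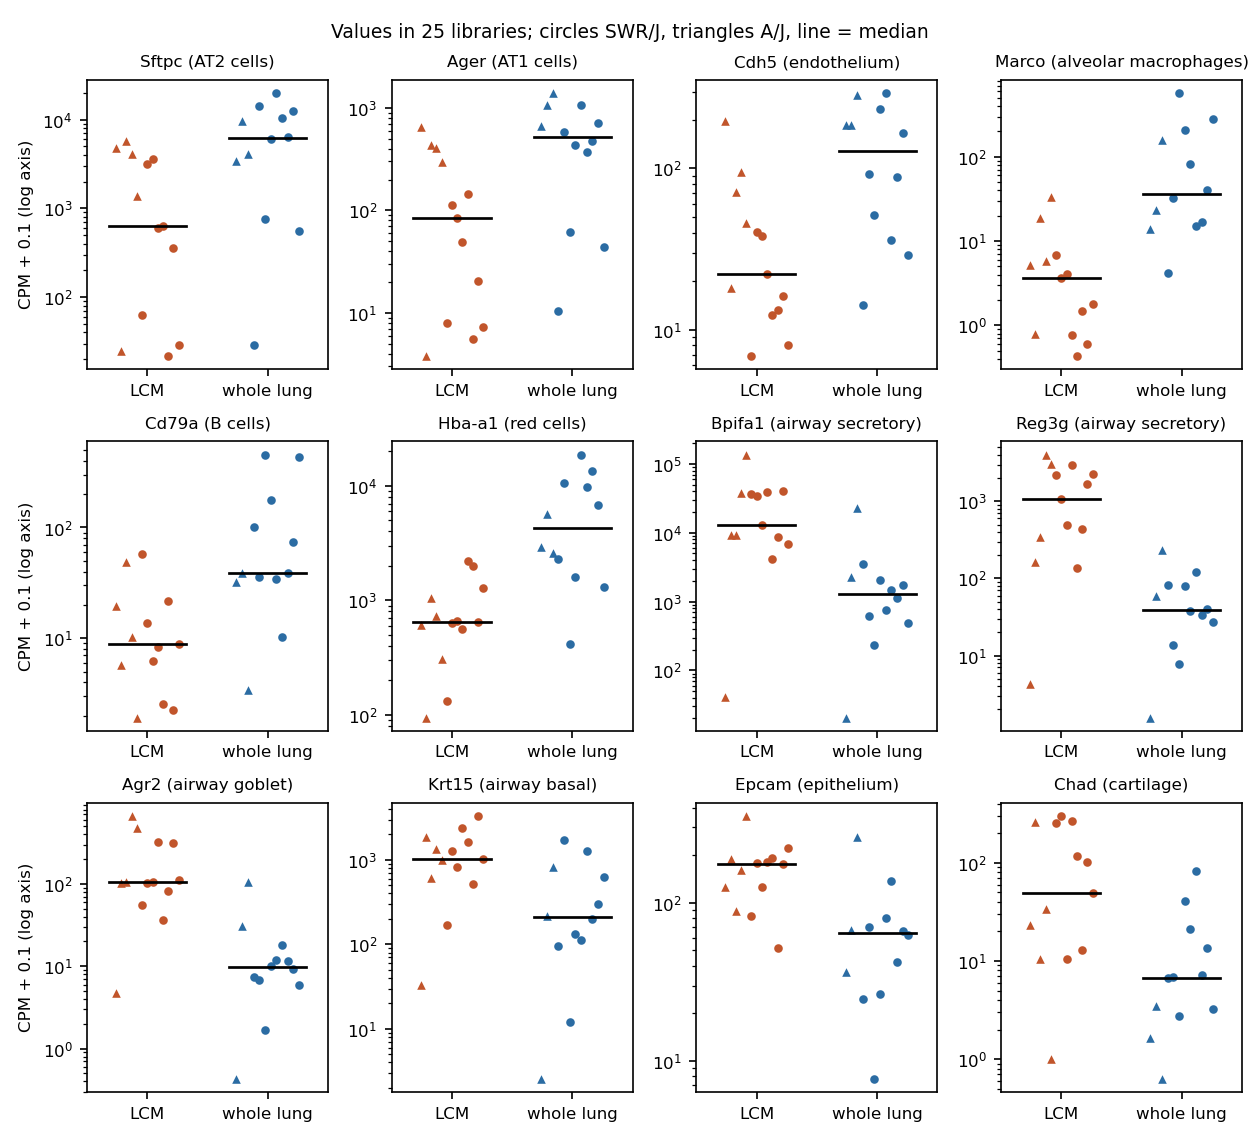
Each panel is 1 gene and each point 1 sample, with CPM plus 0.1 on a log axis, circles for SWR/J, triangles for A/J and a line at the median of each source. The sources overlap in every panel, and the medians differ, as for Reg3g (1075 CPM in LCM and 38.7 CPM in whole lung) and Sftpc (627.5 and 6221 CPM).

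To describe what each source carried, 40 lists of marker genes for cell types, tissues and cell states were examined. They held 377 genes, of which 339 passed the filter on low values and were tested. Of these, 40 were higher in LCM and 67 were higher in whole lung, and 28 lists held at least 1 called gene. With 17.8% of all genes called, a list of several genes often holds a called gene by that share alone. The count of 28 is therefore no result about the lists. A lower level in bulk tissue can come from fewer cells of a type or from less RNA in each cell, which cannot be told apart in these data. The median of a list is given beside the -0.02 of all genes, and the share of its members called beside the 7.64% and 10.1% of all genes, as descriptions.

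**Figure D4:**
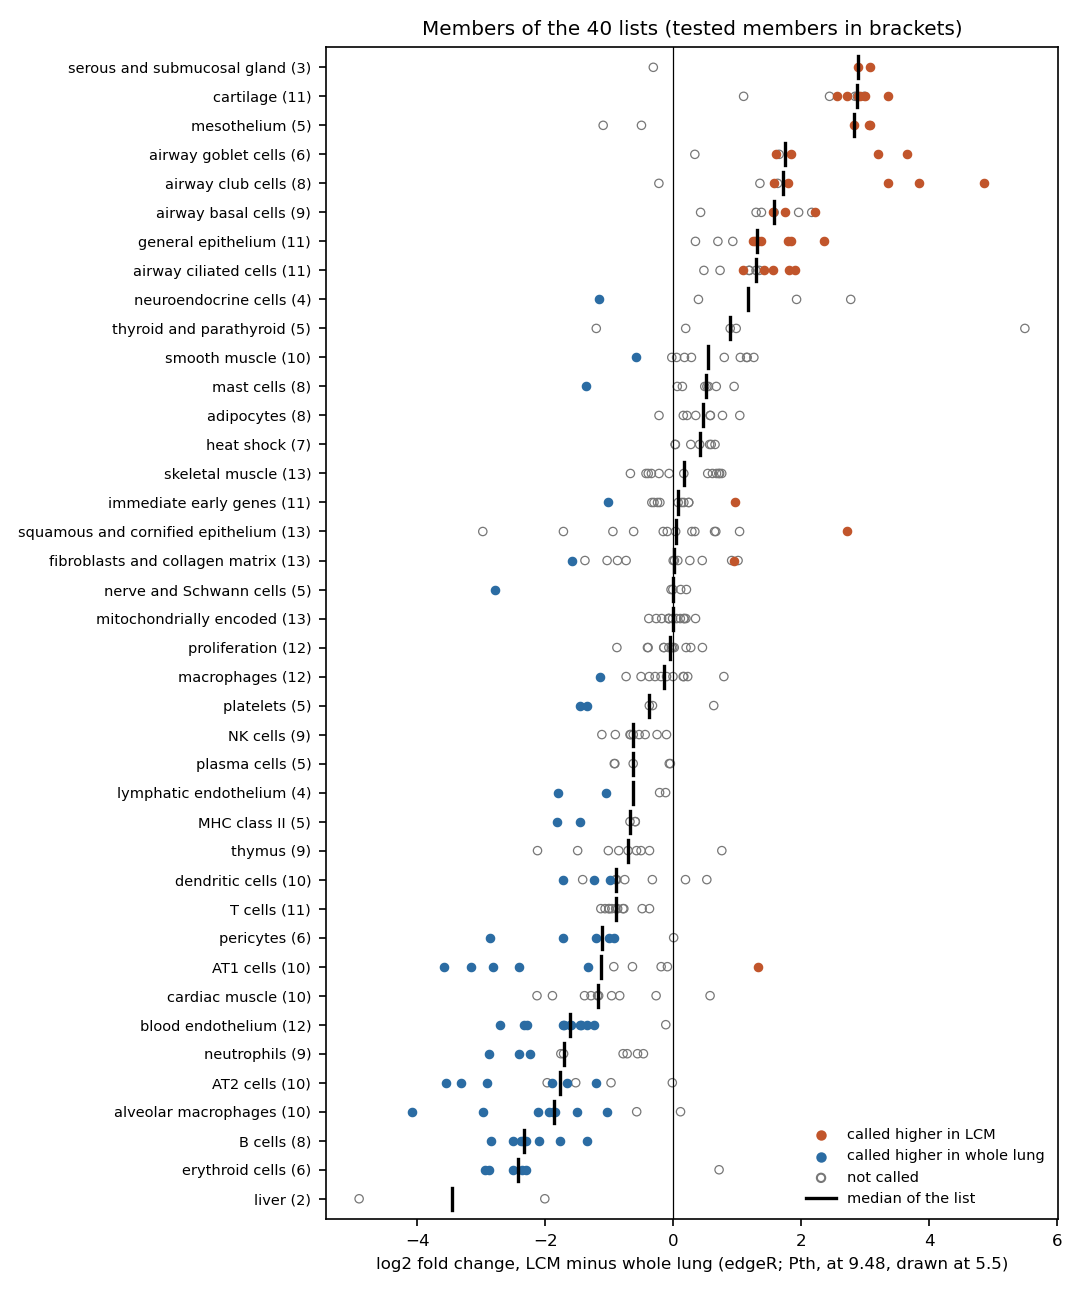
Each point is a tested member of 1 of the 40 lists, placed by edgeR's log2 fold change of LCM minus whole lung, with colour for an adjusted p under 0.05 and a bar at the median of the list. Medians are below 0 for AT2 cells (-1.78), blood endothelium (-1.61) and B cells (-2.33), and above 0 for club cells (1.72), goblet cells (1.75) and cartilage (2.88).

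Genes of the alveolar epithelium were lower in LCM. Of 10 AT2 genes, 6 were higher in whole lung and 0 in LCM, and all 10 had a negative log2 fold change, with a median of -1.78. The AT2 sum ranged from 432 to 10890 CPM in LCM with a median of 1744 CPM, and from 223 to 33970 CPM in whole lung with a median of 10820 CPM. Whole lung was higher in all 8 combinations, although the ranges overlapped widely. Besides Sftpc, Lamp3 and Slc34a2, the genes called were Lpcat1, which makes the main surfactant lipid (-1.90, edgeR adjusted p = 0.00389), Napsa, which cuts surfactant protein precursors (-1.66), and Etv5, a transcription factor that maintains AT2 cells (-1.21). The surfactant genes Sftpb (-1.97, standard error 1.04) and Sftpa1 (-1.53, standard error 0.68) did not pass the test, and Sftpd, which airway cells also make, had a log2 fold change of -0.01. The number of AT2 genes called was 3 without LCM sample 41, LCM sample 7c or whole lung sample 74, and 3 also without the 8 samples with thymus RNA, with a median of -2.18. Without whole lung sample 70 it was 6.

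Of 10 AT1 genes, 5 were higher in whole lung and 1 was higher in LCM. Ager, the receptor for advanced glycation end products and the gene most typical of AT1 cells, had a median of 84.8 CPM in LCM (3.67 to 656) and 525 CPM in whole lung (10.3 to 1393), and whole lung was higher in all 8 combinations (log2 fold change -2.82, edgeR adjusted p = 0.0126). Rtkn2 (-2.42), Akap5 (-3.17), Clic5 (-1.34) and Cldn18 (-3.58) were also higher in whole lung. Aqp5, a water channel that is found in airway glands and secretory cells as well as AT1 cells, was higher in LCM (1.33, standard error 0.46, edgeR adjusted p = 0.0487). This share, 1 of 10, is near that of all genes called higher in LCM (7.64%). Hopx (-0.09) and Pdpn (-0.19), which are also expressed outside AT1 cells, had log2 fold changes near 0 and did not pass the test. In the samples without thymus RNA, 5 AT1 genes were called in whole lung, and Aqp5 was not called.

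Genes of blood endothelium were higher in whole lung. Of 12 genes, 11 were higher in whole lung, and the median log2 fold change was -1.61. Cdh5, the cadherin of endothelial junctions, had a median of 22.0 CPM in LCM (6.74 to 195.5) and 128 CPM in whole lung (14.2 to 293), with whole lung higher in all 8 combinations (log2 fold change -2.33, standard error 0.40, edgeR adjusted p = 0.00171). Pecam1 (-1.46), the VEGF receptor Kdr (-1.61), the tight junction gene Cldn5 (-2.72), Calcrl (-2.29) and Vwf (-1.44), which carries clotting factor in the blood, were called in the same direction. Emcn was the exception (-0.12, standard error 0.21). The sum over the list was highest in LCM in sample 46, at 2174 CPM, against an LCM median of 381 CPM and a whole lung median of 1564 CPM, and it was lowest in whole lung in sample 70, at 255 CPM. The count was 9 of 12 without the 8 samples with thymus RNA, and 10 or 11 when any 1 sample was left out.

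Cells around the small vessels and lymph vessels differed in the same direction. Of 6 pericyte genes, 5 were higher in whole lung, among them Cox4i2, a subunit of the respiratory chain that lung pericytes express (-2.86, edgeR adjusted p = 0.00134), Higd1b (-1.22) and Pdgfrb, the receptor that recruits pericytes (-0.92). This count fell to 3 when any of 9 samples was left out, namely LCM samples 2B, 40, 41, 42 and 49 and whole lung samples 71, 73, 79 and 84, and to 1 without the 8 samples with thymus RNA. In the normal samples alone the fold change of Pdgfrb had the opposite sign (0.55). Of 4 lymphatic genes tested, Lyve1, a hyaluronan receptor (-1.81), and Flt4, the receptor for lymphatic growth factors (-1.05), were higher in whole lung, and 1 of them was called without the 8 samples with thymus RNA. Prx, which was listed for Schwann cells and is also made by lung capillary endothelium, was the single nerve gene called (-2.79, edgeR adjusted p = 0.00284).

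Genes of the airway epithelium were higher in LCM. Of 8 club cell genes, 5 were higher in LCM and 0 in whole lung, with a median log2 fold change of 1.72. Cyp2f2, a cytochrome P450 of club cells that activates inhaled toxicants, had a median of 4729 CPM in LCM (1266 to 13540) and 1195 CPM in whole lung (82.1 to 3747), with LCM higher in 7 of 8 combinations (1.80, standard error 0.42, edgeR adjusted p = 0.00694). Aldh1a1, an aldehyde dehydrogenase that makes retinoic acid, was higher by 1.57. The gene most typical of club cells, the secretoglobin Scgb1a1, did not pass the test: its median was 11140 CPM in LCM (382.5 to 183700) and 10300 CPM in whole lung (619.7 to 60710), LCM was higher in 4 of 8 combinations, and its log2 fold change was -0.22 (standard error 0.86, edgeR adjusted p = 0.886).

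Of the 8 goblet cell genes, 6 were tested and 4 were higher in LCM: Agr2, Spdef, the transcription factor that drives goblet cell formation (1.61), Fcgbp, a mucus protein (1.85), and Tff2, a trefoil peptide (3.20). LCM was higher in all 8 combinations for each of these 4. The gel-forming mucin Muc5b did not pass the test (1.66, standard error 0.76, edgeR adjusted p = 0.136), and Muc5ac did not pass the filter, with at most 2.88 CPM in any sample. Of 3 tested genes of serous and gland cells, the iron-binding protein of secretions Ltf (2.89, edgeR adjusted p = 0.00644) and Dmbt1 were higher in LCM, and both had LCM higher in all 8 combinations. In the samples without thymus RNA, 1 of the 3 was called.

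Of 11 ciliated cell genes tested, 5 were higher in LCM and all 11 had a positive log2 fold change, with a median of 1.29. The axonemal dynein genes Dnahc5 (1.82) and Dnahc9 (1.42), the radial spoke gene Rsph1 (1.57), Tppp3 (1.1) and Hydin (1.91) passed the test, while Foxj1, the transcription factor of motile cilia, did not (0.73, standard error 0.53, edgeR adjusted p = 0.360). The count was 1 without LCM sample 41, 3 without whole lung sample 73 or 84, 8 without LCM sample 40 and 9 without LCM sample 45.

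Of 9 basal cell genes, all had a positive log2 fold change (median 1.58) and 3 passed the test: the keratin Krt15 (2.22, edgeR adjusted p = 0.0480), the nerve growth factor receptor Ngfr (1.56) and Dlk2 (1.74). Krt5, the keratin that marks basal cells, had a median of 586 CPM in LCM (29.5 to 2838) and 165 CPM in whole lung (12.1 to 1139), with LCM higher in 7 of 8 combinations, but did not pass (1.58, standard error 0.63, edgeR adjusted p = 0.0878), and nor did Trp63, the transcription factor of basal cells (1.3, edgeR adjusted p = 0.0571). The count was 1 without whole lung sample 82 and 5 or 6 without LCM sample 7, 40, 42 or 46 or whole lung sample 71 or 79.

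Genes shared by many epithelia were also higher in LCM, 8 of 11 with a median of 1.31. Krt19, a keratin of simple and airway epithelium, had a median of 600.4 CPM in LCM (206 to 1924) and 89.9 CPM in whole lung (13.1 to 1250), with LCM higher in all 8 combinations (2.36, standard error 0.46, edgeR adjusted p = 0.00318). The adhesion molecule Epcam (1.38), the claudins Cldn3 (1.33), Cldn4 (1.79) and Cldn7 (1.31) and the epithelial transcription factor Elf3 (1.84) were called as well. Cdh1, the epithelial cadherin, was not (0.35, standard error 0.35). The count was 3 without LCM sample 41.

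Fewer airway genes were called without the samples with thymus RNA. With those 8 samples left out and 17 remaining, 0 of 8 club cell genes, 0 of 11 ciliated, 0 of 9 basal and 0 of 11 general epithelial genes passed edgeR's test at an adjusted p under 0.05, and 1 of 6 goblet cell genes did. At an unadjusted p under 0.05 these counts were 5, 7, 3, 6 and 4. The medians of the log2 fold changes were 1.5, 1.48, 1.37, 1.16 and 1.59. Without the pair of samples with thyroid RNA, the counts were 6 for club, 9 for ciliated, 2 for basal, 8 for general epithelial and 4 for goblet cell genes.

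Squamous and cornified epithelium, which appears in NTCU lesions and also lines the esophagus, was found at high levels in some samples of both sources. Its sum ranged from 99.1 to 22280 CPM in LCM and from 31.8 to 102000 CPM in whole lung, and the highest sample was whole lung sample 71, which is labelled normal. Of 13 genes tested, Krt6a, a keratin of stressed and proliferating squamous cells, was higher in LCM (2.71, standard error 0.92, edgeR adjusted p = 0.0465). This share, 1 of 13, is near that of all genes called higher in LCM (7.64%). Krt6a was called in 9 of 25 fits with 1 sample left out and not without the 8 samples with thymus RNA, and in the A/J samples alone its fold change had the opposite sign (-3.72). The median of the list was 0.04, and LCM was higher in 4 of 8 combinations.

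Cartilage genes were higher in LCM. The cartilage sum had a median of 354 CPM in LCM (4.83 to 1200) and 34.7 CPM in whole lung (6.28 to 345), and LCM was higher in 7 of 8 combinations, the exception being A/J mice at 20 µmol. The highest LCM samples were 7c (1200 CPM), SM1 (945 CPM) and 5 (830 CPM), and 0 whole lung samples exceeded 345 CPM. Of 11 genes tested, 6 were higher in LCM and all 11 had a positive log2 fold change, with a median of 2.88. The matrix genes Col9a3 (2.55, edgeR adjusted p = 0.00896), Col11a1 (3.35), Chad (3.0), Comp (2.92) and Hapln1 (2.72) and the cartilage growth factor Lect1 (2.88) were called, while Col2a1, the main collagen of cartilage, was not (2.84, edgeR adjusted p = 0.0600). The count was 3 without LCM sample 41 or whole lung sample 81 or 82, 10 without LCM sample 7 or whole lung sample 73 or 78, and 0 by edgeR without the 8 samples with thymus RNA (4 at an unadjusted p under 0.05), where the median was 2.19.

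The mesothelial list held genes of different distributions. Msln, Upk1b and Muc16 were higher in LCM in all 8 combinations (3.08, 2.83 and 3.06), and the edgeR adjusted p of Msln (chr17:25885559-25891272) was 0.000905. Msln ranged from 16.4 to 3804 CPM in LCM and from 9.30 to 2000 CPM in whole lung, and 1 LCM sample was above all whole lung samples. Muc16 is a membrane mucin that airway epithelium makes as well. The other tested genes of the list, Upk3b (-1.1, standard error 0.75) and Lrrn4 (-0.50, standard error 0.61), which are more restricted to mesothelium, did not pass the test, and Wt1 did not pass the filter. The calls of this list are therefore given gene by gene. Without the 8 samples with thymus RNA, 2 of the 5 were called.

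Muscle and connective tissue were present in both sources. Of 10 smooth muscle genes, which are high in airway walls and large vessels, edgeR called 0 higher in LCM and 1, Synm, higher in whole lung (-0.58), with a median of 0.54 and 4 genes at an unadjusted p under 0.05. This share, 1 of 10, is near that of all genes called higher in whole lung (10.1%). DESeq2 called 3 higher in LCM and limma voom 4, and edgeR called 4 without whole lung sample 70. Acta2, smooth muscle actin, had LCM higher in 8 of 8 combinations but did not pass the test (1.16, standard error 0.46, edgeR adjusted p = 0.0867). Of 13 fibroblast and matrix genes, 1 was higher in LCM (Mfap5, 0.94) and 1 in whole lung (Inmt, -1.58), and the collagen genes Col1a1 (0.02) and Col1a2 (0.00) had fold changes near 0. Each share, 1 of 13, is near that of all genes called in the same direction (7.64% and 10.1%). With the 8 samples with thymus RNA left out, edgeR called 0 smooth muscle and 0 fibroblast and matrix genes (5 and 4 at an unadjusted p under 0.05), and also 0 neuroendocrine, 0 macrophage and 0 immediate early genes (1, 2 and 2). Cardiac muscle (0 of 10 genes called, median -1.17), skeletal muscle (0 of 13, median 0.17) and fat (0 of 8, median 0.47) held no gene called by edgeR, with 3, 0 and 0 at an unadjusted p under 0.05. DESeq2 called none of them, and limma voom called 8 cardiac genes, higher in whole lung, and 1 fat gene. Skeletal muscle sums were highest in LCM sample 45 (14270 CPM) and in whole lung samples 78 (13480 CPM) and 79 (12680 CPM), against medians of 256 and 609 CPM. The thyroid list (0 of 5 tested genes called), the thymus list (0 of 9) and the liver list (0 of 2) held none either, by edgeR, DESeq2 or limma voom, with 1, 0 and 0 genes at an unadjusted p under 0.05 in edgeR.

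**Figure D5:**
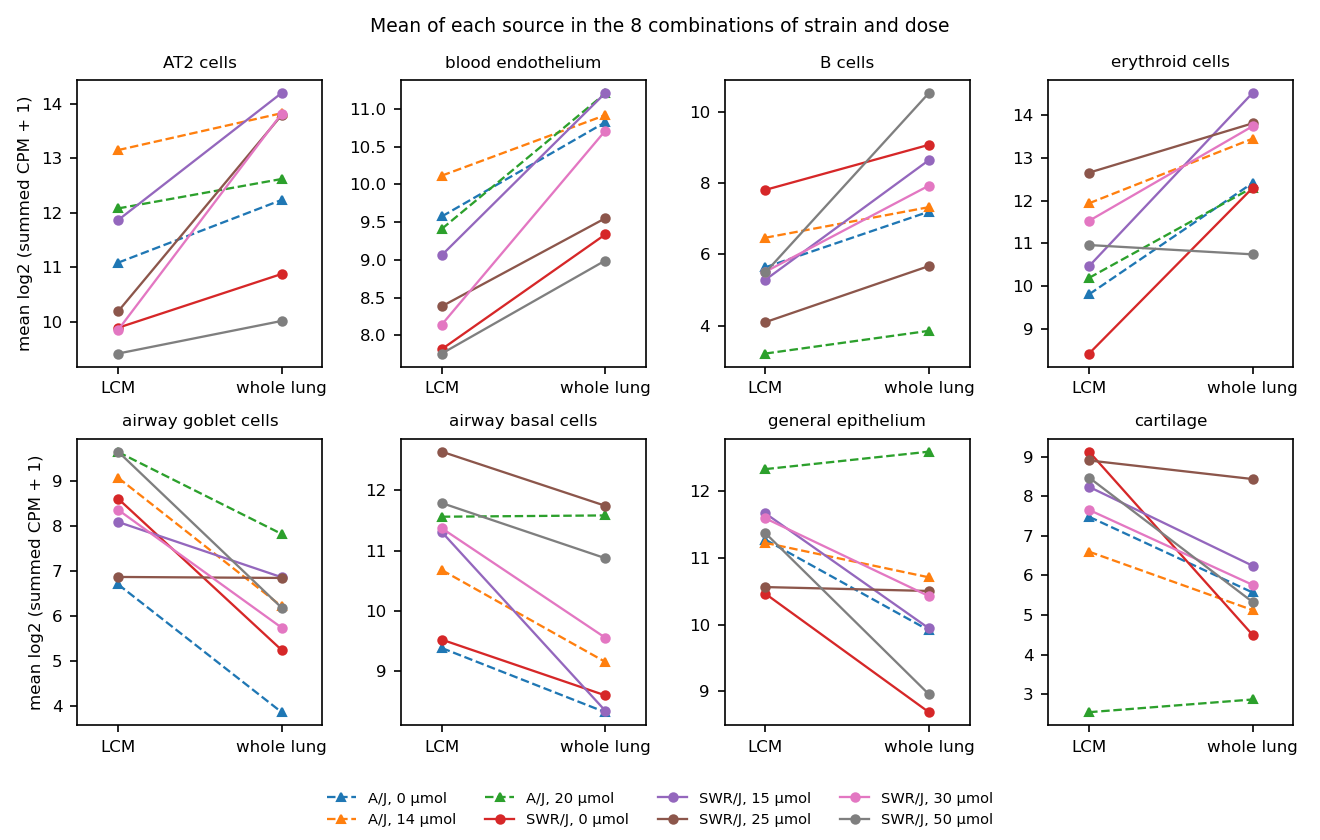
Each panel is 1 list and each line joins the mean of LCM to the mean of whole lung in 1 of the 8 combinations of strain and dose, on a scale of log2 of the summed CPM plus 1. Lines rise towards whole lung in 8 of 8 combinations for AT2 cells, blood endothelium and B cells, and they fall towards whole lung in 7 of 8 for basal cells and cartilage.

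Among immune cells, most genes of air-space macrophages and B cells were higher in whole lung. Of 10 genes of alveolar macrophages, 8 were higher in whole lung, with a median of -1.86. Their sum was 98.4 to 238 CPM in LCM and 138.5 to 2075 CPM in whole lung. Besides Marco and Chi3l3, the integrin Itgax (-1.51, edgeR adjusted p = 0.00392), the ribonuclease Ear2 (-1.85), the proton pump subunit Atp6v0d2 (-2.11), Krt79 (-1.87), Siglec5, the sialic acid receptor of mouse alveolar macrophages (-1.94), and the lipid transporter Abcg1 (-1.03) were called. Of 12 genes expressed by macrophages in general, 1 was called (Mertk, a receptor for dying cells, -1.15), and the median was -0.15. This share, 1 of 12, is near that of all genes called higher in whole lung (10.1%). The sum of this general list went the other way, with a median of 4678 CPM in LCM and 2635 CPM in whole lung. LCM was higher for it in 7 of 8 combinations. Without the 8 samples with thymus RNA, 6 of the 10 alveolar macrophage genes were called.

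All 8 B cell genes were higher in whole lung, with a median of -2.33. Cd79a, the signalling chain of the B cell receptor, had a median of 8.83 CPM in LCM (1.82 to 57.5) and 38.6 CPM in whole lung (3.35 to 454), and whole lung was higher in all 8 combinations (-2.10, standard error 0.52, edgeR adjusted p = 0.00956). Pax5, the transcription factor that sets B cell identity (-2.85), Ms4a1, the CD20 antigen (-2.31), Cd22 (-2.38) and Cr2 (-2.50) were called as well. The count was 8 without whole lung sample 72 or 79 and 6, the lowest with 1 sample left out, without whole lung sample 82. It was 2 without the 8 samples with thymus RNA, where the median was -3.03. In the A/J samples alone the fold changes of Cd79a and Ms4a1 had the opposite sign (2.26 and 2.71). None of the 5 plasma cell genes passed edgeR's test, with 0 at an unadjusted p under 0.05, and DESeq2 called 0 and limma voom 2. Plasma cell sums were highest in whole lung samples 79 and 72 (6223 and 3066 CPM) and LCM sample 5 (1297 CPM).

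Of 11 T cell genes, 0 passed edgeR's test at an adjusted p under 0.05 (median -0.90), with 0 at an unadjusted p under 0.05, DESeq2 called 0 and limma voom called 9, higher in whole lung. By edgeR 3 were higher in whole lung once the samples with thymus RNA were left out. Thymocytes express many of the genes on this list, and the T cell sum reached 4758 CPM in LCM and 6109 CPM in whole lung. Of 9 NK cell genes tested, 0 were called by edgeR (1 at an unadjusted p under 0.05), 0 by DESeq2 and 2 by limma voom. Of 8 mast cell genes, 7 had a positive log2 fold change, and the median was 0.51. The exception was the growth factor receptor Kit, called higher in whole lung (-1.37). This share, 1 of 8, is near that of all genes called higher in whole lung (10.1%). Of 10 dendritic cell genes, 3 were higher in whole lung: Zbtb46, a transcription factor of classical dendritic cells (-1.0), Clec9a, a receptor for dead cells (-1.72), and the homing receptor Ccr7 (-1.24). Among the 5 MHC class II genes, Cd74, the invariant chain (-1.45, edgeR adjusted p = 0.00219), and Ciita, which switches on the group (-1.83), were higher in whole lung. Of 9 neutrophil genes tested, Retnlg, the chemokine receptor Cxcr2 (-2.41) and the collagenase Mmp8 (-2.23) were higher in whole lung. Yet the 2 highest neutrophil sums were those of LCM samples 42 (16360 CPM) and 45 (2607 CPM), against 1528 CPM in the highest whole lung sample. The neutrophil count was 1 without any of LCM samples 2B, 40, 41, 45 and 49 and whole lung samples 74 and 84, and 0 by edgeR without the 8 samples with thymus RNA (1 at an unadjusted p under 0.05), where the median moved from -1.72 to -0.70. Without those 8 samples, 2 dendritic cell genes and 1 MHC class II gene were called.

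Genes of red blood cells were higher in whole lung. Of 6 erythroid genes tested, 5 were higher in whole lung, with a median of -2.43, and the sum was 313 to 6445 CPM in LCM and 1717 to 82640 CPM in whole lung. The beta globin genes Hbb-b1 and Hbb-b2 had log2 fold changes of -2.36 and -2.30, and Slc4a1, the anion exchanger of the red cell membrane, of -2.50. The highest value was that of whole lung sample 74. The count was 3 without LCM sample 5 or 7c and 0 by edgeR without the 8 samples with thymus RNA (5 at an unadjusted p under 0.05), where the median was -2.57. The platelet genes Itga2b (-1.36) and Gp1ba (-1.46) were higher in whole lung, and this count fell to 1 when LCM sample 46 or most of the single whole lung samples were left out, and to 0 by edgeR without the 8 samples with thymus RNA (1 at an unadjusted p under 0.05).

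Lists that describe the state of cells held few called genes. Of 12 proliferation genes, 0 were called by edgeR and 0 had an unadjusted p under 0.05, with a median of -0.05, and DESeq2 called 0 and limma voom 1. Mki67, a marker of dividing cells, was not among those with a call (-0.88, standard error 0.53, edgeR adjusted p = 0.264). None of 7 heat shock genes and none of 13 mitochondrially encoded genes were called by edgeR, with 1 and 0 at an unadjusted p under 0.05, and DESeq2 and limma voom each called 1 heat shock gene and 0 mitochondrial genes. Of 11 immediate early genes, which respond within minutes to handling and injury, Fos was higher in LCM (0.97, edgeR adjusted p = 0.0185) and Jun was higher in whole lung (-1.03, edgeR adjusted p = 0.0135). Each share, 1 of 11, is near that of all genes called in the same direction (7.64% and 10.1%). Of 4 neuroendocrine genes tested, 3 had a positive log2 fold change, and the median was 1.16. The exception, Syp, a synaptic vesicle protein, was called higher in whole lung (-1.17). The hormone gene Calca was not called (1.93, standard error 1.34).

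The median Pearson correlation coefficient of log2 CPM across genes was 0.822 over 78 pairs of LCM samples, 0.781 over 66 pairs of whole lung samples and 0.774 over 156 pairs of 1 LCM and 1 whole lung sample. For pairs of different source, it was 0.835 where strain and dose were the same (20 pairs) and 0.758 elsewhere (136 pairs). Pairs share samples, and genes are not independent replicates, so these values are descriptions. In a principal component analysis, the source explained 3.90% of the first component (24.3% of variance), 16.8% of the second (20.8%) and 48.1% of the third (10.8%), so that the axis most related to source was not the largest one.

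Whether the difference between sources changed with disease or strain was tested with interaction terms. For lesion against normal, 0 genes (0.0%) passed edgeR's test, with 1425 at an unadjusted p under 0.05, and DESeq2 called 17 and limma voom 0. The smallest p-values were those of Sox5, Reep6, Mitd1, Hamp and Hpx, each with an edgeR adjusted p of 0.535. For A/J against SWR/J, 0 genes (0.0%) passed, with 1305 at an unadjusted p under 0.05, and DESeq2 called 9 and limma voom 8. The smallest p-values were those of Itih4, Ttc38, B930041F14Rik, Sptlc1 and Serpina9, each with an edgeR adjusted p of 0.565. The zeros hold for edgeR, and the tools gave different counts on the same samples. Within SWR/J alone, 527 genes were called (149 higher in LCM and 378 in whole lung), and 7 of 10 AT2 genes, 9 of 12 endothelial genes, 3 of 8 club cell genes and 5 of 8 B cell genes were among them. Of the other airway lists and cartilage, SWR/J alone gave 3 of 11 general epithelial genes, 1 of 6 goblet cell, 1 of 11 cartilage, 0 of 11 ciliated and 0 of 9 basal cell genes, with 6 ciliated and 6 basal cell genes at an unadjusted p under 0.05 in edgeR. Within A/J alone, with 8 samples and 4 residual degrees of freedom, edgeR called 0 genes, with 2138 at an unadjusted p under 0.05. Within the 7 normal samples alone, with 3 residual degrees of freedom, it called 0, with 1112 at an unadjusted p under 0.05.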

How the data were processed

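RNA from fresh frozen tissue was made into TruSeq v2 libraries by the authors, trimmed with Trimmomatic, aligned to mm9 with STAR and summarized with RSEM, and the deposited values are expected counts per gene, not normalized, of which 88.8% are whole numbers. The kit does not mark strand, so that sense and antisense genes that overlap cannot be told apart. All 37310 genes were matched to GENCODE annotation of NCBIM37. The 25 passed samples were analysed and the 15 failed samples were used only in alternatives and in the closing section. Source, strain, grade and median TIN came from the labels. The grade label was used where the description gave another one.

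Expected counts were rounded for edgeR 4.0.16 in R 4.3.3. Genes were kept where log2 CPM (prior count 2) had an interquartile range above 0 and a sum above 1, as in the methods of the study, which left 15630 genes. The robust quasi-likelihood test on TMM-normalized counts had source, grade in 5 levels, strain and median TIN as terms, and a Benjamini-Hochberg adjusted p under 0.05 was called. Standard errors are the absolute fold change divided by the square root of F. DESeq2 1.42.0 and limma 3.58.1 were alternatives. Library measures were compared by a two-sided permutation test with 100000 resamples (Python 3.11.15, scipy 1.17.1). On simulated data for this comparison (15627 genes), edgeR recovered 51 of 100 genes with a log2 change of 1 and 84 of 100 with a change of 2, with 6 false calls. DESeq2 recovered 67 and 90 of them with 38 false calls, and limma voom 51 and 82 with 9. The simulation held no effect of grade, strain, RNA integrity or tissue from outside the lung. Its false calls therefore do not give the error rate in the real samples.

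Named genes were the 10 with the largest and the 10 with the smallest fold change among called protein-coding genes whose mean log2 CPM was 3 or more and whose difference in group means, without covariates, had the same sign in each strain (a fit of 1 strain with covariates can differ in sign), the members of the marker lists, and the 5 genes with the smallest p for each interaction. The source comparison, the lists and these rules were chosen with earlier results of these data known. A member of the B cell list is not reported here and was left out of its counts. Depth limits the precision of genes at a few CPM, and SDs between samples include the counting error.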

Additional observations from a re-analysis of the deposited data

Results flagged for a closer look

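The 15 samples that failed quality control were outside the comparisons. In some of them the summed expression of the thyroid, skeletal muscle or squamous epithelium list was above the highest of the 7 normal samples that passed. The failed samples include samples with lesions. Samples with lesions that passed, such as 45 and 78, also had thyroid and skeletal muscle sums above those of the normal samples. The values here are CPM of the summed expected counts without TMM. Each was above the level of 3 counts in its own library, a floor that covers counting error only. The thyroid and parathyroid sum, at most 338.5 CPM in the passed normal samples, was 5658 CPM in LCM sample 20, 2039 CPM in whole lung sample 80, 901.8 CPM in LCM sample 44 and 671 CPM in LCM sample 25. The skeletal muscle sum, at most 1241 CPM in the passed normal samples, was exceeded in 10 of the 15 samples. It was 38460 CPM in LCM sample 44, 23320 CPM in whole lung sample 80, 17820 CPM in LCM sample 43, 11850 CPM in whole lung sample 77 and 6098 CPM in LCM sample 50. It was 5110 CPM in whole lung sample 83 and 3838, 3456, 2824 and 2271 CPM in LCM samples 1, 19, 20 and 8c. The squamous and cornified epithelium sum was 76550 CPM in whole lung sample 77, against at most 66030 CPM in the passed normal samples. The thymus and liver sums exceeded the passed normal samples in 0 of the 15 samples. For thymus this cannot tell whether failed samples hold thymus RNA, because some passed normal samples carry it, at up to 2880 CPM. The highest thymus sum of the failed samples was 703.8 CPM, in LCM sample 19, from 12 expected counts. That is above the limit of 500 CPM used for the passed samples, which was applied to values with TMM.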

How the results depend on the processing

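The count of 2780 called genes was 2779 with RLE size factors, 2403 with library size alone, 2821 with filterByExpr, 2413 without a gene filter, 2228 without median TIN, 2202 without grade, 2681 without strain, 2258 with grade as a rank, 2930 with the 8 combinations, 2265 in lesion samples alone, 3043 without samples with a median TIN under 30 and 3189 without whole lung sample 72. It was 3935 by DESeq2 (1975 higher in LCM), 5781 by limma voom (2725 higher in LCM and 3056 in whole lung), 1449 with source alone (588 and 861), 527 in SWR/J alone (149 and 378), 0 in A/J alone and in normal samples alone, 1329 with all 40 samples (615 and 714) and 443 without the samples with thymus RNA (117 and 326). The interactions, with 0 genes by edgeR, had 17 for lesion and 9 for strain by DESeq2 and 8 for strain by limma voom. With 1 sample left out the count of called genes ranged from 1916 to 3189, with 810 to 1561 higher in LCM and 1031 to 1706 higher in whole lung. In A/J alone the log2 fold change had the opposite sign for 2310043J07Rik (-1.29), Msln (-1.44), Lamp3 (0.78), Kdr (0.68), Krt6a (-3.72), Epcam (-0.49), Krt8 (-0.59), Ltf (-1.31), Cd79a (2.26), Ms4a1 (2.71), Zbtb46 (0.17) and Fos (-1.1), and in normal samples alone for Flt4 (0.26) and Pdgfrb (0.55). The cause was not tested. The difference in medians between sources was -4.30 percentage points for uniquely aligned reads, -251400 for summed counts, 39.0 genes detected and -0.11 percentage points for mitochondrial reads. Over all 40 samples the difference in means was -6.41 for median TIN, -12.9 percentage points for unique reads and -2301000 for summed counts. No paired analysis was possible because LCM and whole lung samples share no replicate number in the labels.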
